A study of Mus musculus with 6 samples.

Results

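Protocadherins are cell adhesion molecules of the cadherin superfamily, and their genes were taken here as every gene symbol that starts with Pcdh. This gave 71 of the 24062 symbols measured. 15 belong to the alpha cluster (Pcdha), 22 to the beta cluster (Pcdhb), 22 to the gamma cluster (Pcdhg), and 12 are non-clustered genes at separate loci. Transcripts were counted in the ventral dentate gyrus of male C57black 6 mice, in 3 libraries from not-stressed controls and 3 libraries from mice after chronic restrained stress, a repeated confinement used as a psychological stressor. The labels give no transgene, drug or age, and call the 3 libraries of a group biological replicates without saying if one library holds 1 animal or several. The p-values therefore measure the spread between these samples.

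The clustered genes lie side by side in one locus. Each alpha or gamma gene has its own large first exon, which encodes the extracellular and transmembrane part and is spliced to short constant exons that all genes of the cluster share, whereas each beta gene is essentially one exon with no constant part. A neuron transcribes only a few of these genes, chosen largely at random through CTCF and cohesin, and the resulting set of surface proteins binds matching sets on other membranes, which lets a neurite recognise branches of its own cell. The C-type genes at the ends of the alpha and gamma clusters (Pcdhac1, Pcdhac2, Pcdhgc3, Pcdhgc4 and Pcdhgc5) are the exception, since they are regulated more deterministically. The non-clustered delta protocadherins are expressed in subsets of neurons and take part in axon growth, synapse formation and synapse removal.

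The gene counts of a library summed to between 8305753 and 10107953, and protocadherin genes held 0.228% to 0.254% of them. Levels are given as CPM, the usual depth-scaled count of a gene after TMM scaling (a trimmed mean of log ratios between libraries), and differences as log2 fold changes of stress over control (log2FC) with their standard error (SE). Stress replicate 1 stood apart from the other 5 libraries. The 9 choroid plexus markers summed to 4800 CPM there and to between 24.8 and 32.8 CPM in the others, the 10 striatum and amygdala markers to 1000 CPM against 207 to 228 CPM, and the 12 granule neuron markers to 833 CPM against 1350 to 1740 CPM. No granule neuron marker was at 0 in any library. Kcne2, Otx2 and Aqp1 of the choroid plexus list were at 0 in at least 1 of the other 5 libraries. Several results are therefore also given without stress replicate 1. The tissue is bulk, so fewer cells of a type and less RNA per cell cannot be told apart.

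Of the 71 genes, 66 had enough counts to be tested, and none of them passed an adjusted p of 0.05 by edgeR's quasi-likelihood test. Over all tested genes, 0.0285% passed. The smallest adjusted p of a protocadherin gene was 0.202, for Pcdh11x. At an unadjusted p under 0.05, 11 were lower in stress and 2 were higher, where 4.85% of all tested genes were lower, 3.86% higher and 8.71% either at such a p. DESeq2 called 1 protocadherin gene, Pcdh11x, and 0.762% of all genes it gave an adjusted p. Without stress replicate 1, edgeR also called Pcdh11x alone, where 0.289% of all tested genes were called. In 16 of the 66 genes the stress and control libraries did not overlap, 13 with stress lower and 3 with stress higher, while 14.6% of all tested genes had groups without overlap, 7.84% lower and 6.76% higher. Without stress replicate 1 the count was 25 of 67, where groups of 3 and 2 libraries did not overlap in 29.2% of all tested genes.

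Among the non-clustered genes, the delta1 group holds Pcdh1, Pcdh7, Pcdh9 and Pcdh11x, whose cytoplasmic tails carry a motif that binds protein phosphatase 1. Pcdh11x, an X-linked gene (GRCm38 chromosome X from 120290259 to 120910619), was at 49.9, 57.5 and 57.1 CPM in control replicates 1 to 3 and at 38.2, 33.5 and 25.8 CPM in stress replicates 1 to 3. Each stress library lay below each control library. Its log2FC was -0.76 (SE 0.14), from a mean of 54.8 ± 4.29 to 32.5 ± 6.28 CPM (SD, n = 3), and ranked it at 38 among all tested genes by p. The adjusted p of 0.202 did not pass. It was 0.00108 with DESeq2 and 0.0158 without stress replicate 1, where the log2FC was -0.89 (SE 0.12). With limma-voom the adjusted p was 0.186. When any other library was left out, edgeR gave adjusted p-values from 0.184, without stress replicate 2, to 0.686, without control replicate 3. Over all fits that left out 1 library, the log2FC stayed between -0.89 and -0.61.

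Pcdh9, the most abundant protocadherin transcript here, was at 497, 446 and 522 CPM in controls and at 418, 443 and 362 CPM in stress. Its groups did not overlap, although control replicate 2 and stress replicate 2 lay close together. The log2FC was -0.26 (SE 0.09), with an adjusted p of 0.523. Pcdh7 was at 199, 190 and 249 CPM in controls and at 198, 153 and 161 CPM in stress, where stress replicate 1 lay within the control range. The log2FC was -0.32 (SE 0.13), with an adjusted p of 0.54, and a value of -0.18 without control replicate 3. The remaining delta1 gene, Pcdh1, went the other way. It was at 104, 105 and 98.4 CPM in controls and at 112, 113 and 125 CPM in stress, with no overlap, a log2FC of 0.19 (SE 0.07) and an adjusted p of 0.526. Summed over the 4 delta1 genes, controls held 798 to 926 CPM and stress libraries 674 to 766 CPM. Pcdh11x was also lower relative to Pcdh9 in the stress libraries. There were 10, 12.9 and 10.9 counts of Pcdh11x per 100 counts of Pcdh9 in controls and 9.15, 7.56 and 7.11 in stress.

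Pcdh15, known for the tip links of inner ear hair cells, is neither a delta1 nor a delta2 gene. It was at 46.5, 32.4 and 43 CPM in controls and at 27.1, 32.9 and 24.3 CPM in stress, so that stress replicate 2 lay just above control replicate 2. The log2FC was -0.53 (SE 0.16), with an adjusted p of 0.426. Pcdh20, an adhesion gene outside both delta groups, was at 292, 260 and 219 CPM in controls and at 290, 265 and 307 CPM in stress. The groups overlapped, with a log2FC of 0.16 (SE 0.11), which was 0.06 without control replicate 3 and 0.26 without control replicate 1. Pcdh12, a gene of vascular endothelium, had between 1 and 7 counts per library and was not tested.

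To show sequence before an annotated start of genes that were lower in stress, the 250 bases upstream of a RefSeq start are printed for Pcdh9 and Pcdh15. The Pcdh15 start used is internal to its GENCODE gene, which begins at 73099342 on chromosome 10. Both genes were lower at an unadjusted p under 0.05 by edgeR, and the printed windows touch no annotated GENCODE exon. In the RefSeq table used here, no other non-clustered gene that was lower at such a p has a window free of these exons. The Pcdh9 window is chr14:93890680-93890929 on the minus strand, and the Pcdh15 window is chr10:73821617-73821866 on the plus strand, and both lie within the span RefSeq gives the gene (GRCm38.p6, 5′ to 3′). Capitals mark matches on either strand to 3 motifs, which may overlap. These are the half-site of the cAMP response element (TGACG or CGTCA), the glucocorticoid receptor half-site (AGAACA or TGTTCT) and the E-box (CACGTG).
Pcdh9: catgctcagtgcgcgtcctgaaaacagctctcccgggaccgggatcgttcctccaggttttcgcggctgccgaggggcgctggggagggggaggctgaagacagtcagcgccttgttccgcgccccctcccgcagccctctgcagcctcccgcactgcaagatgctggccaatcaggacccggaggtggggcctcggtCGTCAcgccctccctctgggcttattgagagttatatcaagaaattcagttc
Pcdh15: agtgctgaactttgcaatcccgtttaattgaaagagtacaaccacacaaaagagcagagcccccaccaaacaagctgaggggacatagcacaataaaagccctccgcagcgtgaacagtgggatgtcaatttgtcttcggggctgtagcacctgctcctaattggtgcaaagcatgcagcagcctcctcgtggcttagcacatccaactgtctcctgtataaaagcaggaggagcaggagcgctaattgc
The Pcdh9 window held 1 cAMP half-site and neither of the other motifs, and the Pcdh15 window held none of the 3. Of 32851 RefSeq promoter windows of this length, 17.8% held the cAMP half-site, 16.1% the glucocorticoid half-site and 6.02% the E-box. The windows differed in base composition. Pcdh9 had 18 CG dinucleotides, more than 78.3% of the windows, and Pcdh15 had 6, more than 49.6%.

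The delta2 group holds Pcdh8, Pcdh10, Pcdh17, Pcdh18 and Pcdh19, several of whose products recruit the WAVE actin regulators through their tails. No delta2 gene had groups without overlap, and only 14.6% of all tested genes had such groups. Pcdh10, which takes part in the removal of excitatory synapses, was at 185, 193 and 221 CPM in controls and at 211, 166 and 153 CPM in stress. In the fit, the log2FC was -0.18 (SE 0.12), and -0.32 (SE 0.09) without stress replicate 1, the one stress library in its control range. It was -0.09 without control replicate 3 and -0.08 without stress replicate 3. Pcdh8, also called arcadlin and induced by neuronal activity, was at 40.1, 43 and 35.5 CPM in controls and at 29.1, 47.9 and 58 CPM in stress. Stress replicate 1 was thus the lowest of all libraries and the other stress libraries were the highest. The log2FC of Pcdh8 was 0.19 (SE 0.22), with 0.42 (SE 0.11) when stress replicate 1 was left out and -0.04 when stress replicate 3 was.

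Pcdh17, which is concentrated at synapses of corticobasal ganglia pathways, showed the same order of stress libraries. It was at 167, 183 and 188 CPM in controls and at 149, 195 and 216 CPM in stress, with a log2FC of 0.06 (SE 0.13) that was 0.2 without stress replicate 1 and -0.05 without stress replicate 3. Pcdh19, an X-linked gene mutated in a form of epilepsy that affects females, was at 140, 134 and 133 CPM in controls and at 137, 150 and 180 CPM in stress. Its log2FC was 0.2 (SE 0.1), and 0.08 without stress replicate 3, the highest library. Pcdh18, which binds the adaptor Dab1, was the least abundant delta2 gene, at 8.23 to 9.79 CPM in controls and 6.96 to 9.66 CPM in stress, with a log2FC of -0.09 (SE 0.17) that turned to 0.05 without stress replicate 3. Adjusted p-values of the 5 delta2 genes ran from 0.643 to 0.935 with all libraries and from 0.134 to 0.811 without stress replicate 1. The delta2 sum was 541 to 586 CPM in controls and 536 to 614 CPM in stress.

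**Figure D1:**
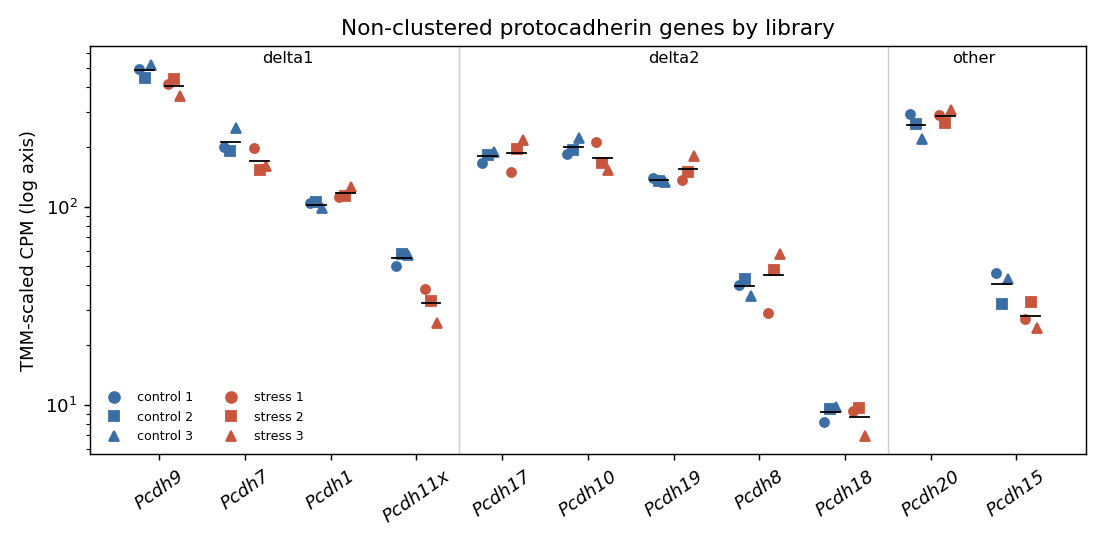
TMM-scaled CPM of the 11 tested non-clustered genes on a log axis, with 1 point per library (blue control, red stress, shape by replicate) and a line at each group mean. The 3 stress points of Pcdh11x, at 25.8 to 38.2 CPM, lie below its 3 control points, at 49.9 to 57.5 CPM. All 5 delta2 genes overlap, as most tested genes do (14.6% of them have groups without overlap).

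Most beta genes were lower in stress. Of the 21 tested, 17 had a log2FC below 0, where 49% of all tested genes did, and the median was -0.26 against 0 over all tested genes. In 9 of the 21 each stress library lay below each control library, a pattern found in 7.84% of all tested genes, and in 1 each lay above. 7 were lower at an unadjusted p under 0.05 (4.85% of all tested genes) and none was higher (3.86%). None passed, with a smallest adjusted p of 0.324. Relative to the control mean of each gene, the median over the 21 genes was 0.04, -0.06 and 0.01 in the controls and -0.26, -0.18 and -0.35 in stress replicates 1 to 3 on the log2 scale. 18, 16 and 18 of the genes were below their control mean in these stress libraries, and the matching share over all tested genes was not counted. Without stress replicate 1, 17 beta genes had a value below 0, as did 51.5% of all tested genes, and 11 were lower without overlap, as were 14.6% of all tested genes. Over fits that left out 1 library the median ran from -0.34, without stress replicate 2, to -0.18, without control replicate 1.

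Summed over the whole cluster, Pcdhb genes held 278, 256 and 268 CPM in controls and 215, 239 and 217 CPM in stress. The sums did not overlap, and their means were 267 ± 11.1 and 224 ± 13.3 CPM (SD, n = 3). The same held within the clustered genes of each library, a ratio that no scaling between libraries can move. Pcdhb genes made up 33.9%, 34.1% and 35.9% of clustered protocadherin counts in controls and 30.4%, 32.3% and 29.4% in stress. The alpha and gamma sums overlapped between groups. Pcdha genes held 90.9 to 115 CPM in controls and 96.1 to 99.3 CPM in stress, and Pcdhg genes 385 to 426 CPM and 394 to 426 CPM. The difference between clusters was not tested.

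**Figure D2:**
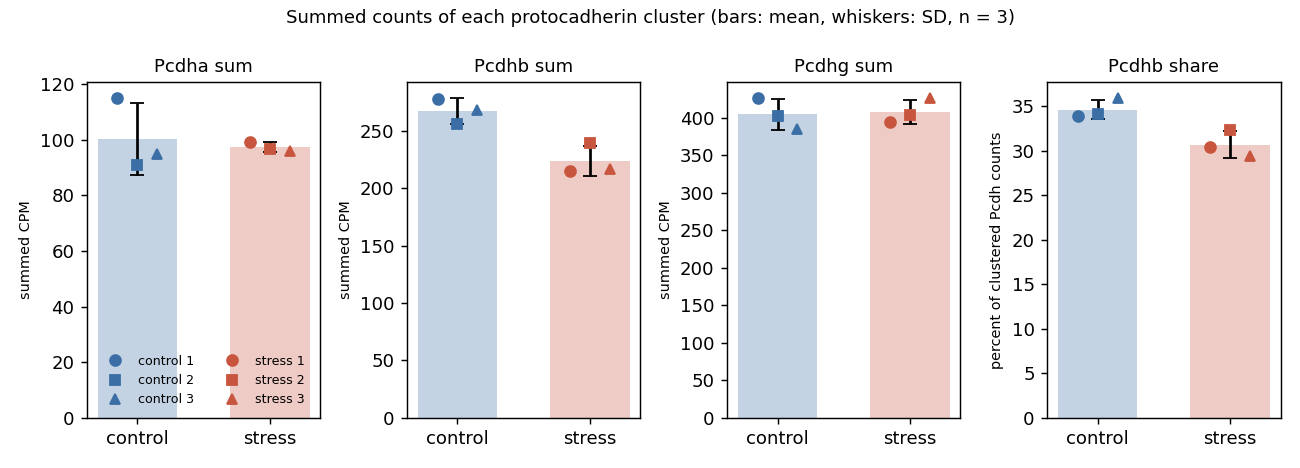
Summed TMM-scaled CPM of the Pcdha, Pcdhb and Pcdhg genes, and the percentage of all clustered protocadherin counts that came from Pcdhb genes, with bars for the mean of 3 libraries, whiskers for the SD and points for libraries. The stress points of the Pcdhb sum, at 215 to 239 CPM, lie below all control points, at 256 to 278 CPM, while the Pcdha and Pcdhg points overlap.

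Individual beta genes encode adhesion proteins of closely similar structure and have few assigned roles of their own. The most negative values were those of a pair of genes near the start of the cluster. Pcdhb5 was at 9.32, 6.57 and 10.5 CPM in controls and at 4.26, 5.59 and 4.99 CPM in stress, without overlap. The log2FC was -0.83 (SE 0.23), with an adjusted p of 0.324. Pcdhb3 was at 6.78, 6.18 and 6.81 CPM in controls and at 3.6, 5.01 and 3.53 CPM in stress, also without overlap. In the fit, the log2FC was -0.7 (SE 0.19), with an adjusted p of 0.364.

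Among genes at the far end of the beta cluster, Pcdhb20 was at 16.3, 15.2 and 16.1 CPM in controls and at 10.3, 14 and 11.4 CPM in stress. All 3 stress libraries lay below all controls, with a log2FC of -0.42 (SE 0.13) and an adjusted p of 0.459. Pcdhb17 was at 30, 22.5 and 24.7 CPM in controls and at 21.3, 19.7 and 20.1 CPM in stress, with a log2FC of -0.34 (SE 0.12) that was -0.21 without control replicate 1. Pcdhb19 was at 22.4, 22.4 and 27.9 CPM in controls and at 17.4, 21.5 and 19.8 CPM in stress. Its log2FC of -0.31 (SE 0.13) was -0.19 without control replicate 3. Neither overlapped between groups. Pcdhb16, the beta gene with the highest CPM, was at 32.7, 32.6 and 28 CPM in controls and at 22.8, 28.1 and 25.8 CPM in stress, so that stress replicate 2 met control replicate 3. The log2FC was -0.28 (SE 0.11). Pcdhb18 was at 22.9, 23.5 and 21.8 CPM in controls and at 19.8, 20 and 21.5 CPM in stress, a log2FC of -0.15 (SE 0.09) without overlap.

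Not every beta gene was lower. Pcdhb7 was at 11.9, 12 and 12.1 CPM in controls and at 12.3, 12.2 and 13 CPM in stress, narrowly without overlap and with a log2FC of 0.06 (SE 0.11). Pcdhb14 was at 14.3, 17.9 and 14.6 CPM in controls and at 16, 14.9 and 16.2 CPM in stress. In the fit, the log2FC of 0.01 (SE 0.12) changed sign when control replicate 1 or 3, or stress replicate 1 or 3, was left out. Pcdhb6 and Pcdhb11 were at 0.01 (SE 0.21) and 0.05 (SE 0.16). The remaining 10 tested beta genes, with Pcdhb21 as the most negative at -0.46 (SE 0.23), ran up to -0.13, and 3 of them, Pcdhb9, Pcdhb10 and Pcdhb12, had no overlap. Pcdhb1 had between 1 and 5 counts per library and was not tested. These genes other than Pcdhb7 and Pcdhb14 are named after their values were seen.

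**Figure D3:**
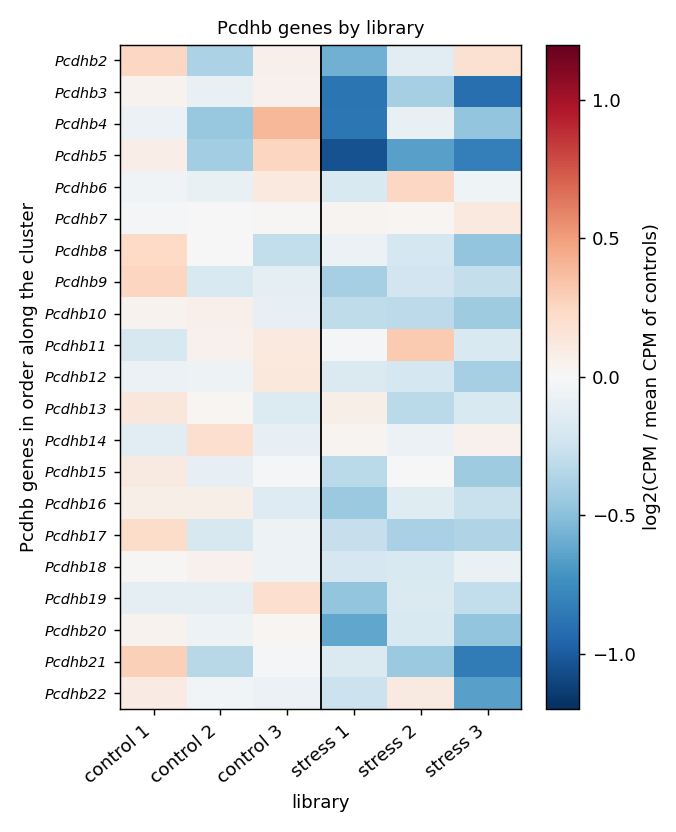
Each cell is the log2 ratio of a Pcdhb gene's CPM in a library to its mean in the controls, with the 21 tested genes in order along the cluster and the libraries in columns. The stress columns are mostly blue (lower), and Pcdhb6, Pcdhb7, Pcdhb11 and Pcdhb14 stand out as near 0. Against the mean of the log2 control values, a slightly different reference from the one drawn, the stress medians were -0.26, -0.18 and -0.35.

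No alpha gene separated the groups, and the controls differed among themselves. Of the 12 tested, 9 had a log2FC below 0, as did 49% of all tested genes. None had an unadjusted p under 0.05 (8.71% of all tested genes) and none was without overlap (14.6%), and with 12 genes such shares amount to few genes. The median was -0.11, and it was 0.08 without control replicate 1, the library with the highest levels. Relative to the control means, the median over the genes was 0.3 in control replicate 1 and -0.19 and -0.08 in control replicates 2 and 3, against -0.03, -0.1 and -0.21 in stress. Pcdhac2, the C-type alpha gene that serotonergic axons use for their even spacing, had the highest level of the cluster, at 39, 33.7 and 36.5 CPM in controls and at 38.6, 36 and 38.3 CPM in stress. Its log2FC was 0.05 (SE 0.09). The other C-type gene, Pcdhac1, was at 5.93, 6.37 and 5.75 CPM in controls and at 5.89, 6.52 and 6.65 CPM in stress, a log2FC of 0.08 (SE 0.15). The groups overlapped for both.

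The alternate alpha genes, which are chosen at random in single neurons, were each under 10 CPM. Pcdha9 was at 8.84, 7.55 and 7.02 CPM in controls and at 7.53, 7.1 and 9.14 CPM in stress, with a log2FC of 0.03 (SE 0.16) that turned negative without control replicate 3 or stress replicate 3. Pcdha5, with the smallest p of the cluster, was at 7.02, 4.41 and 5 CPM in controls and at 4.69, 4.89 and 4.36 CPM in stress. The log2FC of -0.23 (SE 0.21) was -0.02 without control replicate 1. Pcdha2 was at 3.99, 4.12 and 2.98 CPM in controls and at 3.6, 3.03 and 2.91 CPM in stress, a log2FC of -0.22 (SE 0.22) that was -0.12 without control replicate 2 and -0.35 without control replicate 3. The 3 genes just named overlapped between groups.

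Pcdha6 was at 8.84, 5.59 and 5.75 CPM in controls and at 6.88, 6.29 and 5.3 CPM in stress, a difference of -0.12 (SE 0.22) on the log2 scale. Pcdha7 was at 8.35, 6.18 and 6.28 CPM in controls and at 6.99, 5.7 and 7.9 CPM in stress, a difference of -0.01 (SE 0.19). Both genes overlapped between groups. Pcdha11 was at 8.11, 5.49 and 6.28 CPM in controls and at 6.55, 5.24 and 5.82 CPM in stress, a difference of -0.17 (SE 0.19). Pcdha12 was at 8.72, 4.8 and 7.13 CPM in controls and at 6.99, 7.33 and 5.19 CPM in stress, a difference of -0.08 (SE 0.25). Control replicate 1 was the highest library for each of these 4 genes, and without it the differences were 0.12, 0.14, 0 and 0.13.

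Several alpha genes had too few counts to test. Pcdha1 had 3 to 14 counts per library. Pcdha4 had 0 to 2 counts and Pcdha4-g 0 in all 6 libraries, where a count of 0 allows up to 0.294 to 0.363 CPM (3 counts, counting error only). The neighbouring Pcdha3 and Pcdha5 had 29 to 46 and 42 to 58 counts. If the annotation gave an exon to both Pcdha4 and Pcdha4-g, its reads could be counted to neither, which was not tested. The low counts therefore cannot show that Pcdha4 is absent.

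Gamma genes lay on both sides of 0. Of 22 genes, all of them tested, 12 had a log2FC below 0 and 10 above, with a median of -0.03 that was 0.05 without control replicate 1. The C-type genes are the most studied of the cluster. Pcdhgc5, which binds GABA-A receptors at inhibitory synapses, was at 63.8, 78.1 and 80.4 CPM in controls and at 74.8, 79.4 and 87.9 CPM in stress. In the fit, the log2FC of 0.12 (SE 0.11) was 0.03 without control replicate 1, the lowest library. Pcdhgc3, which restrains Wnt signalling through Axin1, was at 58, 59.6 and 53.1 CPM in controls and at 52.5, 57.6 and 63.7 CPM in stress. Its log2FC was 0.03 (SE 0.09), negative without control replicate 3 or stress replicate 3. Pcdhgc4, which neurons need to survive, was at 17.3, 16.7 and 15.3 CPM in controls and at 13.1, 16.8 and 15 CPM in stress, a log2FC of -0.14 (SE 0.12) that was -0.05 without stress replicate 1. All 3 overlapped between groups.

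Among the alternate gamma genes, Pcdhgb1 had the smallest p. It was at 9.32, 10.8 and 9.58 CPM in controls and at 11.5, 12.9 and 13.7 CPM in stress, so that each stress library was higher. The log2FC was 0.36 (SE 0.13), with an adjusted p of 0.521. Pcdhgb4 was at 11.6, 9.31 and 9.9 CPM in controls and at 11.1, 11.4 and 14.6 CPM in stress, with a log2FC of 0.28 (SE 0.16) that was 0.14 without stress replicate 3. Pcdhga6 lay on the other side. It was at 17.8, 16.7 and 14.6 CPM in controls and at 13.1, 14.4 and 13.7 CPM in stress, without overlap and with a log2FC of -0.25 (SE 0.12). The most abundant alternate gamma gene, Pcdhga11, was at 26.5, 26.5 and 20.3 CPM in controls and at 26.5, 23.4 and 25.6 CPM in stress, a difference of 0.04 (SE 0.12) that was -0.07 without control replicate 3. Pcdhga3 was at 22.3, 18.5 and 19.5 CPM in controls and at 18.1, 20.5 and 21.7 CPM in stress, a difference of 0 (SE 0.12). Pcdhga8 was at 17.1, 16 and 16.9 CPM in controls and at 15.9, 15.4 and 16.8 CPM in stress, a difference of -0.05 (SE 0.1). These 3 genes overlapped between groups. The C-type genes together made up 34% to 39.8% of alpha and gamma counts in controls and 37.5% to 40.5% in stress.

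**Figure D4:**
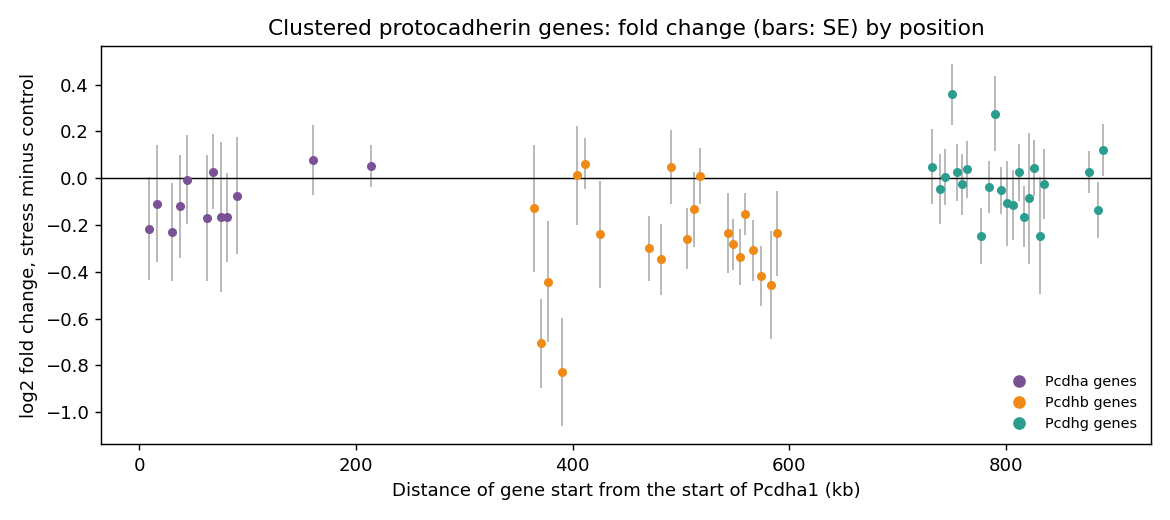
Log2FC of each tested clustered gene against the distance of its start from the start of Pcdha1 in kb, coloured by cluster, with SE bars. Beta genes lie mostly below 0, from -0.83 for Pcdhb5 to 0.06 for Pcdhb7. Of the 12 alpha genes 9 also lie below 0, within a narrower range of -0.23 to 0.08, and gamma genes scatter around 0.

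Levels of different genes can be compared only per length. Each gene's control CPM was divided by the kilobases of GENCODE exon that it does not share with another protocadherin gene. For alpha genes 45.1% to 51.4% of the exon bases were their own. The scale assumes that reads in shared exons were counted to no gene, which the sources used here do not state. On this scale Pcdh9 was highest, at 71.9 ± 5.72 CPM per kb (SD, n = 3), followed by Pcdh20 at 46.8 ± 6.7 and Pcdh7 at 20.1 ± 2.97. The C-type gene Pcdhgc3 was next, at 16.8 ± 1. Pcdh17 at 13.8 ± 0.831, Pcdhgc5 at 13.5 ± 1.64, Pcdh19 at 13 ± 0.399, Pcdh10 at 12.5 ± 1.18, Pcdhac2 at 12 ± 0.869 and Pcdh1 at 11.6 ± 0.398 came after it, and neighbours in this order lay within their SDs of each other. Pcdh11x was at 3.93 ± 0.308 and Pcdh15 at 1.71 ± 0.31. The highest beta gene was Pcdhb16 at 5.95 ± 0.513 CPM per kb and the highest alternate alpha gene Pcdha9 at 3.14 ± 0.376.

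**Figure D5:**
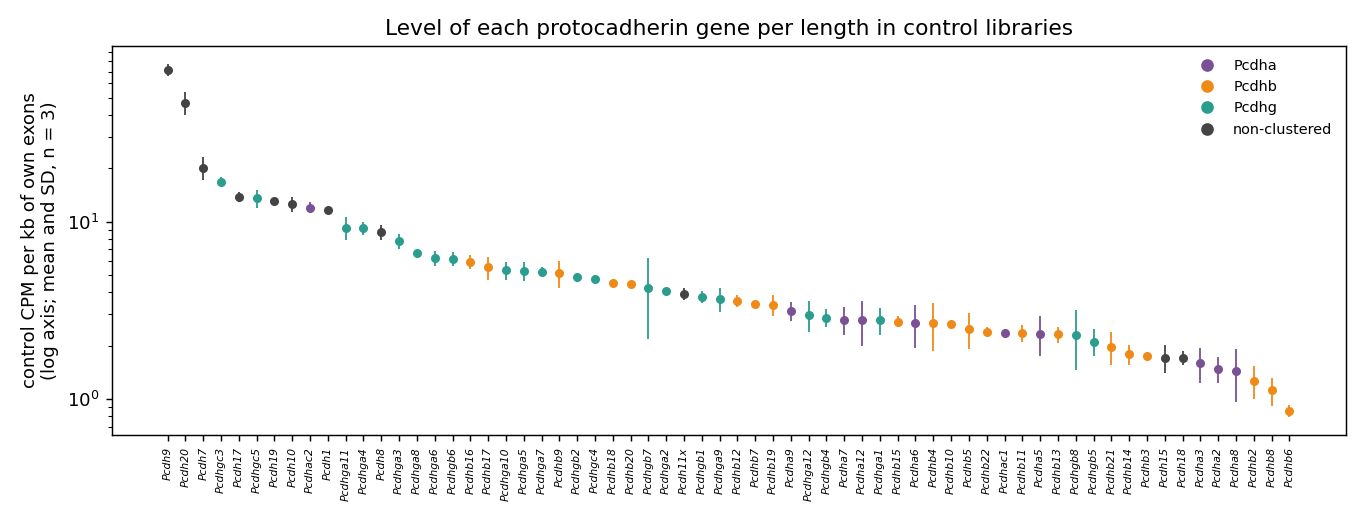
Control level of each tested protocadherin gene with a matched gene model, as CPM per kb of exon not shared with another protocadherin gene (mean and SD of 3 libraries, log axis), ordered from high to low and coloured by subgroup. The 10 highest genes are non-clustered or C-type, from 71.9 for Pcdh9 to 11.6 for Pcdh1. The C-type genes Pcdhac1 at 2.35 and Pcdhgc4 at 4.72 lie among the alternate genes. So do the non-clustered genes Pcdh8 at 8.73, Pcdh11x at 3.93, Pcdh15 at 1.71 and Pcdh18 at 1.71. The alternate clustered genes lie between 0.86 for Pcdhb6 and 9.25 for Pcdhga11.

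Similar sequences can also make reads map to more than one gene. Of all windows of 100 bases, the read length, in the own exons of a beta gene, at most 2.24% had an exact copy at another annotated transcript locus (Pcdhb6), and Pcdhb3, Pcdhb5 and Pcdhb16 had none. The share reached 10.7% in Pcdha6 among alpha genes and 9.63% in Pcdhgb1 and 9.8% in Pcdhgb2 among gamma genes. Counts of genes with such copies are uncertain to that extent, and the part of this in the differences above was not tested.

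Genes that set the choice and silencing of clustered promoters were read from a list of 25, of which 24 were tested. None passed in either direction, and the list's median log2FC was -0.08. In 7 of the 24 each stress library lay below each control (7.84% of all tested genes), and in none did each lie above (6.76%). 4 were lower at an unadjusted p under 0.05 (4.85% of all tested genes), and 3 of these belong to or act with cohesin, the ring that folds the locus. Rad21, the cleavable cohesin subunit, went from 148 ± 8 to 127 ± 3.16 CPM (SD, n = 3), a log2FC of -0.23 (SE 0.07). The alternative cohesin subunits Stag2 and Stag1 were at -0.19 (SE 0.07) and -0.19 (SE 0.09), and Tet1, which oxidises methylated cytosine, at -0.26 (SE 0.1). Stag1 and Rad21 were lowest in stress replicate 1, and their log2FCs were -0.13 and -0.21 without it. Adjusted p-values of these 4 genes ran from 0.386 to 0.573 with all libraries.

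Of the 16 genes of the WAVE complex and actin partners, which delta2 and clustered protocadherins engage, none passed, and the median was 0.12, or 0.07 without stress replicate 1. 5 had each stress library above each control (6.76% of all tested genes) and none the reverse (7.84%). Arpc2, an Arp2/3 subunit, was at 0.2 (SE 0.07), and the WAVE subunits Abi1, Nckap1 and Cyfip1 at 0.18 (SE 0.06), 0.22 (SE 0.09) and 0.16 (SE 0.07). Nckap1 overlapped between groups, was highest in stress replicate 1, at 973 CPM, and was at 0.13 without that library. Cyfip1 and, narrowly, Arpc2 were also highest there, and were at 0.13 and 0.19 without it. Among 20 cytoplasmic kinases and signalling partners none passed, with a median of 0.01. Mef2c, a transcription factor of activity-dependent synapse removal, went from 368 ± 41.7 to 229 ± 43 CPM, a log2FC of -0.69 (SE 0.14) with an adjusted p of 0.215, and 0.000537 by DESeq2. The kinase genes Prkcb and Ptk2b, the latter for a kinase that alpha and gamma tails inhibit, were at 0.41 (SE 0.1) and 0.35 (SE 0.11), and Prkcb passed with DESeq2, at an adjusted p of 0.028. Stress replicate 1 was the lowest library for Mef2c and the highest for Prkcb and Ptk2b. Without it the log2FC was -0.57 for Mef2c, 0.29 for Prkcb and 0.28 for Ptk2b. By edgeR the adjusted p-values there were 0.0603, 0.105 and 0.282. The phosphatase gene Ppp1ca was at 0.1 (SE 0.07).

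Cadherins outside the protocadherin family were read from 2 lists. Of 13 classical cadherin and catenin genes none passed, with a median of -0.02. Cdh24, which is also on the CA3 pyramidal neuron marker list, was at 0.68 (SE 0.21), and at 0.47 without stress replicate 1, its highest library. Cdh11 was at 0.21 (SE 0.07), Cdh4 was at 0.41 (SE 0.24), which was 0.21 without control replicate 1 and 0.2 without stress replicate 3, and the junction gene Jup at 0.16 (SE 0.16), which was 0.05 without stress replicate 2 and 0.32 without stress replicate 3. Of 12 tested large cadherins none passed, with a median of -0.08. The giant cadherin Fat3 went from 542 ± 40.1 to 389 ± 48.2 CPM, a log2FC of -0.48 (SE 0.1) with an adjusted p of 0.232, and 0.005 by DESeq2. Fat2 was scarce, at 2.57 ± 0.669 and 0.58 ± 0.452 CPM, with a log2FC of -2.11 (SE 0.49) that passed without stress replicate 1 at an adjusted p of 0.0421. Fat1 and Fat4 were at -0.24 (SE 0.13) and -0.37 (SE 0.22), and Fat4 was at -0.13 without stress replicate 1. Fat1 was at -0.38 without stress replicate 1, at -0.15 without stress replicate 3 and at -0.12 without control replicate 2.

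Summed markers of other cell types also differed between the libraries of the groups, in both directions. The 9 thalamus and habenula markers summed to 399 to 448 CPM in controls and 215 to 323 CPM in stress, and the 9 neocortical and entorhinal markers to 742 to 767 CPM and 606 to 709 CPM. In the thalamus and habenula list, Calb2 is also a mossy cell marker and overlapped between groups, and Pou4f1 was at 0 to 0.23 CPM. The 10 astrocyte markers summed to 7110 to 8090 CPM in controls and 6240 to 7110 CPM in stress, so that the groups met. In these 3 lists, 5, 5 and 4 of the tested markers had each stress library below each control, and 0, 1 and 0 the reverse, against 7.84% and 6.76% of all tested genes. Their part in the lower levels of Pcdh11x, Pcdh9 and the beta genes was not tested. The 9 CA3 pyramidal neuron markers went the other way, with sums of 956 to 1150 CPM in controls and 1170 to 1790 CPM in stress, and all 9 were highest in stress replicate 1. Their median log2FC was 0.36, and 0.1 without that library, and 1 of the 9, Cdh24, had each stress library above each control. The 9 interneuron markers summed to 803 to 876 CPM in controls and 805 to 824 CPM in stress, and the 9 endothelial and mural markers to 242 to 305 CPM and 257 to 286 CPM. Within the interneuron list, Gad1 and Pvalb had each stress library below each control, and Npy each above. No endothelial or mural marker was without overlap. The 8 meningeal fibroblast markers summed to 79.8 to 110 CPM and 50.8 to 111 CPM, and 3 of them were lower without overlap and 0 higher.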

How the data were processed

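The deposited values are raw read counts per gene symbol made by the authors, 1 table per library. Per the submitters' processing notes, HTSeq 0.6.1, TopHat2 2.0.9, edgeR 3.12.0, Trimmomatic 0.33 and FastQC 0.11.3 were used, with mm10 and GRCm38 named as builds and no roles stated. The sources used here do not give the annotation, the strand setting or the handling of reads with several alignments. Rows of unassigned reads (59.5% to 63.1%) and ambiguous reads (0.211% to 0.253%) were left out. Ambiguous reads include any in exons that alpha or gamma genes share, if those were annotated to each gene.

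In R 4.3.3, edgeR 4.0.16 kept 14058 genes with filterByExpr, scaled libraries by TMM and compared stress with control by the quasi-likelihood test (two-sided, Benjamini-Hochberg over all tested genes). SEs came from limma 3.58.1 (voom). DESeq2 1.42.0 and other settings were alternatives. The code was tested on simulated data. Every pair of libraries differed beyond sampling noise (chi-square per degree of freedom of at least 2.97).

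The members, lists and tests were chosen with earlier results of these data known. Values per library were printed for each tested non-clustered gene, for C-type genes, and for the most abundant, smallest-p and most extreme genes of each cluster. From each pathway list the 4 genes with the smallest p were named. 68 of the 71 symbols matched a GENCODE M21 gene model, used for lengths and positions.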

Additional observations from a re-analysis of the deposited data

How the results depend on the processing

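No protocadherin gene passed under upper-quartile or RLE scaling, without a filter, with at least 1 CPM required in 3 libraries, under limma-voom or a threshold of 0.10, and 1 passed with DESeq2. Leaving out 1 library gave 0 to 1. Over all genes, 4 passed, against 107 with DESeq2, 1 with limma-voom and 0 with the replicate block, and 0 to 41 without 1 library. Genes without overlap between groups numbered 17 to 25 of 66 or 67 without 1 library, where 22.5% to 29.2% of all tested genes did not overlap. The median log2 fold change ran from -0.23 to 0.08 for Pcdha and from -0.34 to -0.18 for Pcdhb genes in these fits. Of 58 named genes, the sign changed in such fits for Pcdh17 (-0.05 to 0.20), Pcdh18 (-0.18 to 0.05), Pcdh8 (-0.04 to 0.42), Pcdha12 (-0.28 to 0.13), Pcdha6 (-0.23 to 0.12), Pcdha7 (-0.12 to 0.14, and 0.01 with limma-voom), Pcdha9 (-0.08 to 0.12), Pcdhb14 (-0.05 to 0.13), Pcdhga11 (-0.07 to 0.11), Pcdhga3 (-0.05 to 0.08) and Pcdhgc3 (-0.04 to 0.09). The cause was not tested. Same-numbered libraries of the groups share only a number, with correlations of their deviations of 0.139, -0.003 and 0.047, and not every library correlated best with its own number. The replicate block changed no call of a named gene. Pcdhb3 rested on 33 to 64 counts per library, so depth limits what genes at its level can show.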
